A study of Mus musculus with 6 samples.

Results

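Oxidative phosphorylation was followed in CNS-associated macrophages (CAMs) through 109 protein-coding genes, out of 35598 gene identifiers measured. The genes were chosen by their GENCODE M21 symbols alone: the Ndufa, Ndufb, Ndufc, Ndufs and Ndufv families, Sdha to Sdhd, the Uqcr genes, Cyc1, Cycs, the Cox4 to Cox8 families, the Atp5 genes, and the mt-Nd, mt-Co, mt-Cytb and mt-Atp genes. Of these, 96 lie in the nuclear genome and 13 in the mitochondrial genome. Subunits or cytochrome c are encoded by 99 of them. The other 10 are 8 Ndufaf genes for assembly factors of complex I, Atp5s and Ndufa4l2. CAMs are the macrophages of the perivascular spaces, meninges and choroid plexus at the borders of the brain. The libraries were made from cells sorted as CD3-CD11b+CD45+CD206+ from brains of male C57BL/6 mice, which were 18 months old for 3 libraries and 2 months old for the other 3. The labels name no transgene, deletion or agent in either age group, and they do not say whether a library holds 1 animal or a pool, so the spread between libraries may be technical.

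The respiratory chain passes electrons from NADH (through complex I) and from succinate (through complex II) to complex III, from there by cytochrome c to complex IV, and on to oxygen. Complexes I, III and IV pump protons across the inner mitochondrial membrane, and complex V, the ATP synthase, uses their return to make ATP. Complex II is encoded by nuclear genes only. The other 4 complexes combine nuclear subunits, made in the cytosol and imported, with subunits translated inside mitochondria from the mitochondrial genome. In macrophages, the use of this chain is known to differ between activation states, with inflammatory activation by bacterial products lowering it in cultured mouse cells.

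The mitochondrial genome is transcribed into long precursors that are cut into messages, and in places 2 reading frames stay on 1 message and share bases. The overlaps within the ATP synthase pair and the complex I pair are shown because reads from those bases belong to both genes, so the values of the pair members are not independent of each other. The bases of the mm10 reference, plus strand, are chrM:7927-7969 for mt-Atp8 and mt-Atp6, with the start codon of mt-Atp6 and the stop codon of mt-Atp8 in capitals, and chrM:10147-10193 for mt-Nd4l and mt-Nd4, with the 7 shared bases, positions 10167 to 10173, in capitals.
mt-Atp8 and mt-Atp6: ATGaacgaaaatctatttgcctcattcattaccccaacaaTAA
mt-Nd4l and mt-Nd4: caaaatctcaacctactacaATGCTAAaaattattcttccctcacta
The first pair shares 43 bases. The library kit did not mark the strand, so reads of mt-Nd6, which lies on the other strand from the remaining 12, could also not be told from antisense RNA of the same place.

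The libraries held between 26605079 and 33306121 estimated counts. Levels are given as counts scaled to a common total (counts per 1000000, CPM) after TMM scaling, which divides each library by a factor that sets most genes level, and values of a group are in the order of replicates 1, 2 and 3. The sort marker Mrc1, the gene for CD206, was at 2345, 1182 and 1306 CPM in the 18-month libraries, against 2770.4, 2940.2 and 2674 CPM in the 2-month libraries, and the groups did not overlap. The summed level of 10 CAM markers, Mrc1 among them, was 7699.7 to 16425 CPM in the 18-month libraries, against 23873 to 27258 CPM in the 2-month libraries, and 9 of the 10 had a log2 fold change below 0. The summed level of 10 microglia markers was 9865 to 17022 CPM in the 18-month libraries, against 5046 to 7725 CPM in the 2-month libraries. The astrocyte sum was 66.4 to 251 CPM in the 18-month libraries, against 47.4 to 57.5 CPM in the 2-month libraries, and the oligodendrocyte sum was 203 to 426 CPM in the 18-month libraries, against 155 to 184 CPM in the 2-month libraries, both higher without overlap. The neuron sum was 8.14 to 19.8 CPM in the 18-month libraries, against 30.0 to 111 CPM in the 2-month libraries, and the erythroid sum was 85.8 to 9863 CPM in the 18-month libraries, against 10100.3 to 30362 CPM in the 2-month libraries, both lower without overlap. Neutrophil sums were 21607, 7982 and 6.65 CPM in the 18-month libraries, against 37768, 12060.1 and 14489 CPM in the 2-month libraries. Choroid plexus epithelium sums were 1039, 572 and 8222 CPM in the 18-month libraries, against 1453, 1118 and 12008 CPM in the 2-month libraries, so replicate 3 stood apart in both age groups. The T cell, B cell, monocyte, endothelium, and mural and fibroblast lists overlapped between the ages, with sums of at most 144 CPM, 233 CPM, 517 CPM, 36.1 CPM and 12.8 CPM in a library, and Pdgfrb was at 0 in all 6. The part of these differences in the results that follow was not tested. In bulk RNA of this kind, fewer cells of a type and less RNA per cell cannot be told apart.

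No member was called changed with age. Of the 109 members, 103 passed the filter on low counts, and 0 were higher and 0 lower at 18 months at an adjusted p under 0.05 in edgeR's quasi-likelihood test. The background was as low: 1 of 10661 tested genes was called higher (0.00938%) and 0 lower (0.0%). Before adjustment, at p under 0.05, 1 member was higher, Cyc1, and 4 were lower, Uqcr10, Atp5e, Ndufaf8 and Cox6c, beside 3.63% higher and 2.04% lower of all tested genes. DESeq2's Wald test called 1 member, Cyc1, higher and 0 lower, beside 1.15% higher and 0.417% lower of the 9831 genes it gave an adjusted p. A missing call does not show that levels were equal, and the sizes and their errors are given for each member.

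The mitochondrially encoded members were the most abundant part of the system. Together they took 11.4, 6.37 and 6.21% of the counts in the 18-month libraries, against 13.3, 11.8 and 8.17% of the counts in the 2-month libraries. Their summed level was 120795, 54285 and 65918 CPM in the 18-month libraries, against 142091, 116900.1 and 82664 CPM in the 2-month libraries. The first 18-month library lay within the range of the 2-month libraries, and the other 2 lay below it. The log2 ratio of the group means was -0.50, and it was -0.29 without the second 18-month library and -0.92 without the first. All 13 had a log2 fold change below 0 (median -0.45, against -0.02 over all tested genes, of which 50.7% were below 0), and in all 13 the ages overlapped. On the log2(TPM + 1) scale, where the median over all genes itself was 0.22, the median of the 13 was -0.20 and 11 were below 0. All but mt-Nd6, which lies on the other strand, come from shared precursors, and the 13 were measured in the same 6 libraries. Their common sign is therefore not 13 separate observations.

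Among the complex I subunits of the mitochondrial genome, which form its membrane arm, mt-Nd1 was at 10299, 4444 and 6074 CPM in the 18-month libraries, against 11983, 10101 and 7021 CPM in the 2-month libraries (log2 fold change -0.48, SE 0.36, adjusted p = 0.986). mt-Nd2 was at 6568, 2339 and 2404 CPM in the 18-month libraries, against 6231, 4994 and 3605 CPM in the 2-month libraries (log2 fold change -0.39, SE 0.44, adjusted p = 0.993). mt-Nd4 was at 7641, 3211 and 3433 CPM in the 18-month libraries, against 7936, 7322 and 4194 CPM in the 2-month libraries (log2 fold change -0.45, SE 0.41, adjusted p = 0.993). In all 3, the second 18-month library was lowest and the first was within the 2-month range or above it. mt-Nd4l, which shares bases with mt-Nd4, was at 428, 219.9 and 127 CPM in the 18-month libraries, against 478, 413 and 255 CPM in the 2-month libraries (log2 fold change -0.56, SE 0.46, adjusted p = 0.993). mt-Nd3 was at 1286, 559 and 286 CPM in the 18-month libraries, against 1113, 984 and 793 CPM in the 2-month libraries (log2 fold change -0.44, SE 0.49, adjusted p = 0.993). Both short reading frames were lowest in the third 18-month library, and mt-Nd3 was highest in the first. mt-Nd5 was at 2888, 1579 and 1441 CPM in the 18-month libraries, against 2727, 2369.6 and 1495 CPM in the 2-month libraries (log2 fold change -0.16, SE 0.36, adjusted p = 0.997). mt-Nd6, the member on the opposite strand, was at 1342, 637 and 662 CPM in the 18-month libraries, against 1383, 1181 and 798 CPM in the 2-month libraries (log2 fold change -0.35, SE 0.38, adjusted p = 0.993). mt-Nd5 had the smallest fold change of the 13, and its first 18-month library was the highest of all 6.

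mt-Cytb, the subunit of complex III that carries the quinone sites, was at 12791, 5923 and 7298 CPM in the 18-month libraries, against 15565, 11898 and 9167 CPM in the 2-month libraries (log2 fold change -0.49, SE 0.35, adjusted p = 0.975). Of the catalytic core of complex IV, mt-Co1, which holds the oxygen-binding centre, was at 15994, 7742 and 11801 CPM in the 18-month libraries, against 20246, 16056 and 12187 CPM in the 2-month libraries (log2 fold change -0.45, SE 0.34, adjusted p = 0.986). mt-Co2, which takes electrons from cytochrome c, was at 14209, 6289 and 5673 CPM in the 18-month libraries, against 16247, 13448 and 9271 CPM in the 2-month libraries (log2 fold change -0.57, SE 0.40, adjusted p = 0.974). The order within each age was alike for these 3, except that mt-Co2 was lowest in the third 18-month library and the other 2 in the second. mt-Co3 was at 21698, 10009 and 11295 CPM in the 18-month libraries, against 27232, 22392 and 16076 CPM in the 2-month libraries (log2 fold change -0.61, SE 0.36, adjusted p = 0.939), the largest fold change of the 13 mitochondrially encoded members. Of the ATP synthase subunits, mt-Atp6, part of the proton channel, was at 22679, 10002 and 13513 CPM in the 18-month libraries, against 27655, 22627 and 15704 CPM in the 2-month libraries (log2 fold change -0.51, SE 0.36, adjusted p = 0.974). mt-Atp8 was at 2972, 1331 and 1909 CPM in the 18-month libraries, against 3295, 3114 and 2099 CPM in the 2-month libraries (log2 fold change -0.45, SE 0.35, adjusted p = 0.993). For mt-Co3, mt-Atp6 and mt-Atp8, the first 18-month library reached the 2-month range and the other 2 lay below it.

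**Figure D1:**
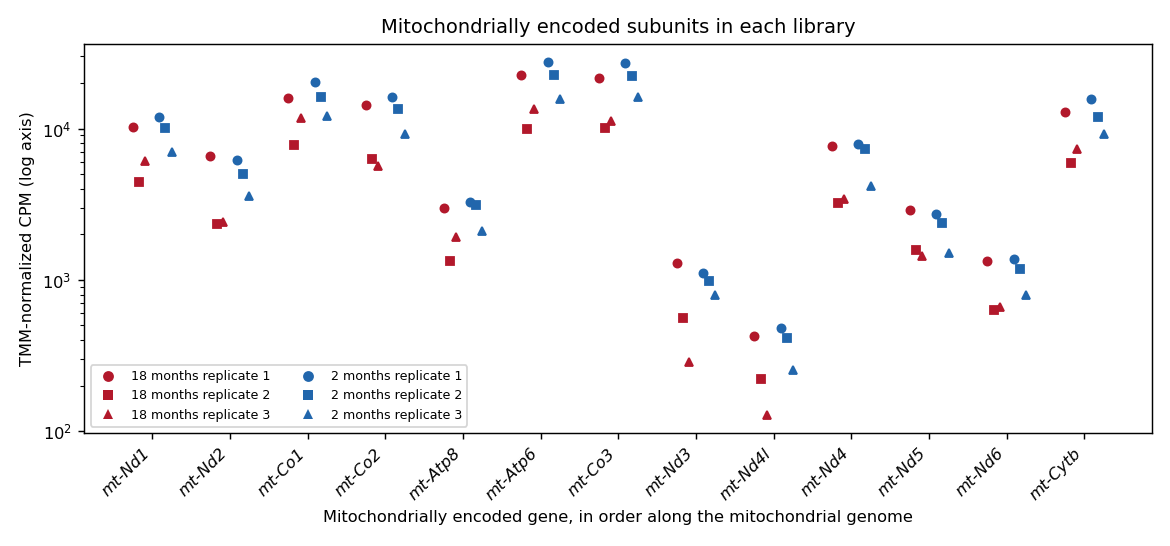
Level of the 13 mitochondrially encoded members in each library, in TMM-normalized CPM on a log axis, in their order along the mitochondrial genome (red, 18 months; blue, 2 months; the marker shape gives the replicate). For every gene the red points spread over or across the blue ones, and the lowest of the 6 is the second 18-month library or the third.

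Per base of effective length, in the deposited TPM, a length-scaled measure of transcripts, mt-Atp8 stood highest at a mean of 100761 TPM over the 6 libraries, but its effective length in the tables is only 10.38 bases, so this value rests on that length. mt-Atp6 (18833 TPM), mt-Co3 (15109.9 TPM) and mt-Co2 (10920.5 TPM) followed, and mt-Nd5 was lowest at 590.0 TPM. mt-Cytb, mt-Nd1 and mt-Co1, at 5209, 5099.5 and 4815 TPM, were neighbours in the order whose ranges over the libraries overlapped widely. Ratios of counts between members do not depend on the scaling of a library. The mt-Co1 to mt-Co2 ratio was 1.13, 1.23 and 2.08 in the 18-month libraries, against 1.25, 1.19 and 1.31 in the 2-month libraries, so the third 18-month library stood apart. The same library had the lowest mt-Nd3 to mt-Nd1 ratio, with 0.125, 0.126 and 0.0472 in the 18-month libraries, against 0.0929, 0.0974 and 0.113 in the 2-month libraries. The mt-Nd6 to mt-Nd5 ratio was 0.465, 0.403 and 0.460 in the 18-month libraries, against 0.507, 0.498 and 0.534 in the 2-month libraries, the only one of 6 ratios computed that did not overlap. These 2 genes overlap at their ends on opposite strands, which the kit does not separate.

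The nuclear members together took 3.06, 1.98 and 3.03% of the counts in the 18-month libraries, against 3.15, 3.44 and 3.84% of the counts in the 2-month libraries. Their summed level was 32493, 16845 and 32146 CPM in the 18-month libraries, against 33603, 34115 and 38849.8 CPM in the 2-month libraries, lower in every 18-month library. The second 18-month library lay far below the other 5, and the remaining 2 lay a little below the lowest 2-month library. The log2 ratio of the group means was -0.39, and -0.14 without that library. The TPM sums overlapped, at 59951, 43635 and 59370.2 TPM in the 18-month libraries, against 58336, 66547 and 72090.4 TPM in the 2-month libraries. Of the 90 nuclear members tested, 68 had a log2 fold change below 0 and 22 above, with a median of -0.30 against -0.02 over all tested genes. On the log2(TPM + 1) scale, with the same shift of all genes, the median was -0.11 and 55 of 92 were below 0. Without the second 18-month library, 48 of 90 were below 0 and the median was -0.06, against -0.09 over all genes.

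The balance between the genomes, as the ratio of mitochondrially encoded to nuclear counts, was 3.72, 3.22 and 2.05 in the 18-month libraries, against 4.23, 3.43 and 2.13 in the 2-month libraries. The spread within each age exceeded the difference between them (log2 ratio of the means -0.12, and 0.03 from TPM). The value from TPM rests largely on mt-Atp8, whose effective length is 10.38 bases. It gave 117623 of the 206298.5 mitochondrially encoded TPM in the first 18-month library. In the second 2-month library it gave 122467 of 204835.5 TPM. In both ages replicate 1 was highest and replicate 3 lowest, and replicate 3 was also the library with the high choroid plexus epithelium sum in both. By complex, the same ratio was between 1.22 and 2.74 at 18 months and between 1.37 and 2.62 at 2 months for complex I, and between 3.31 and 5.31 at 18 months and between 3.14 and 6.50 at 2 months for complex IV.

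**Figure D2:**
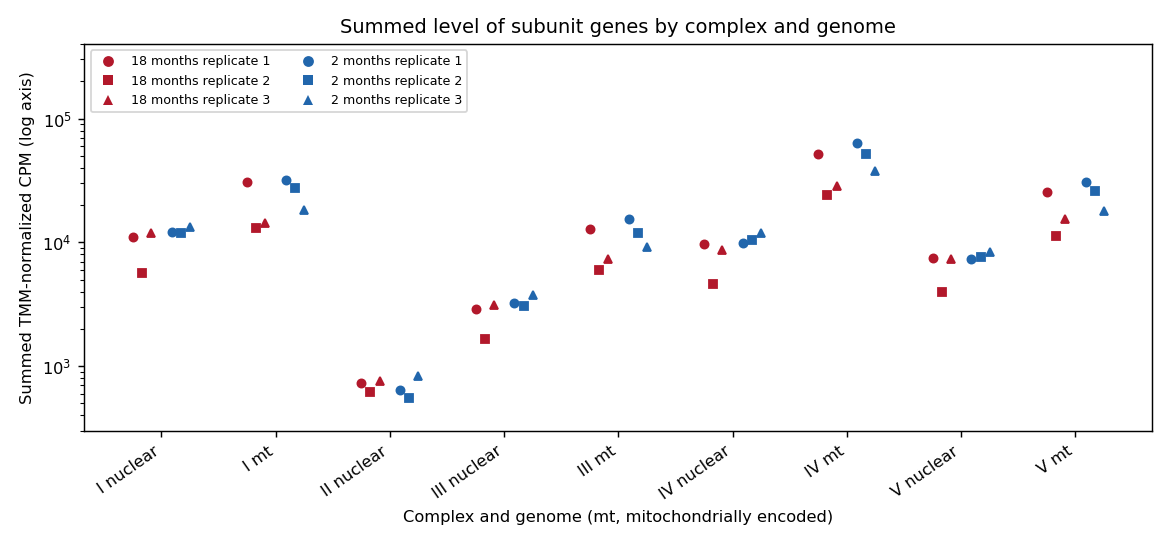
Summed level of subunit genes by complex and genome in each library, in TMM-normalized CPM on a log axis (red, 18 months; blue, 2 months; the marker shape gives the replicate). The nuclear sums of complexes I and IV are lower in every 18-month library, the second 18-month library (square) is the lowest point of every nuclear sum except that of complex II, and all mitochondrially encoded sums overlap.

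Nuclear complex I has 7 core subunits, which carry the flavin and the iron-sulfur clusters, and 29 supernumerary subunits around them. The core was the less abundant of the 2 groups (median over members of 137 TPM, against 387 TPM) and showed no common direction, with 3 members above 0 and 4 below (median log2 fold change -0.14, and 0.22 with 3 below 0 without the second 18-month library). Its most abundant members were Ndufv2, at 616, 211 and 626 CPM in the 18-month libraries, against 562, 394 and 648 CPM in the 2-month libraries (log2 fold change -0.14, SE 0.43, adjusted p = 0.997), and Ndufs8, at 169, 206 and 296 CPM in the 18-month libraries, against 330.4, 159.8 and 278 CPM in the 2-month libraries (log2 fold change -0.19, SE 0.38, adjusted p = 0.993). Both overlapped between the ages. The annotated span of Ndufs1 overlaps that of Eef1b2 on the opposite strand, which had 38219 counts in all against its 5166. How many bases of the messages are shared, and whether this touches the Ndufs1 counts, was not tested.

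Of the 29 supernumerary subunits, 27 were below 0 and 2 above (median log2 fold change -0.40, and -0.16 with 20 below 0 without the second 18-month library). In 8 of them (27.6%) every 18-month library was lower than every 2-month library. All 29 averaged 50 CPM or more, a level at which 8.45% of tested genes were lower in this way. Of the 29, 27 were under 1000 bases, and 7 of these were lower, beside 12.8% of such short genes at that level. Ndufa6 was at 396, 172 and 345 CPM in the 18-month libraries, against 493, 556 and 494 CPM in the 2-month libraries (log2 fold change -0.76, SE 0.36, adjusted p = 0.892). Ndufa2 was at 698, 266 and 656 CPM in the 18-month libraries, against 804, 943 and 902 CPM in the 2-month libraries (log2 fold change -0.71, SE 0.38, adjusted p = 0.929). In both, the second 18-month library was far below the rest, and the other two were nearer to the 2-month libraries than to it. The other 6 were Ndufa13 (log2 fold change -0.52, SE 0.34), Ndufb2 (-0.51, SE 0.38), Ndufb3 (-0.48, SE 0.35), Ndufc2 (-0.35, SE 0.32), Ndufs5 (-0.53, SE 0.36) and Ndufv3 (-0.63, SE 0.32). Ndufb3 was at 292, 154 and 312 CPM in the 18-month libraries, against 384, 352 and 319 CPM in the 2-month libraries, with the third 18-month library just below the lowest 2-month one. Ndufv3, a subunit of the NADH-binding module, was at 306, 202 and 307 CPM in the 18-month libraries, against 457, 342 and 464 CPM in the 2-month libraries, with the 18-month libraries other than the second almost equal. Ndufa3, the most abundant supernumerary member, ahead of Ndufa2, was at 846, 340.3 and 622 CPM in the 18-month libraries, against 817, 1038 and 1008 CPM in the 2-month libraries (log2 fold change -0.66, SE 0.36, adjusted p = 0.929) and overlapped. Ndufa10, chosen here after its values were seen, was the highest in log2 fold change, at 55.9, 67.8 and 147 CPM in the 18-month libraries, against 63.4, 22.9 and 44.5 CPM in the 2-month libraries (log2 fold change 1.05, SE 0.59, adjusted p = 0.934), again with overlap.

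Of the 8 assembly factors of complex I, which build the enzyme without staying in it, 7 were tested, 3 above 0 and 4 below. Ndufaf8, named after its values were seen, was at 29.5, 31.7 and 19.6 CPM in the 18-month libraries, against 47.3, 73.4 and 79.0 CPM in the 2-month libraries (log2 fold change -1.31, SE 0.56, adjusted p = 0.859, unadjusted p = 0.0442), lower in every 18-month library. The most abundant, Ndufaf7 and Ndufaf3, had log2 fold changes of -0.06 (SE 0.50) and 0.59 (SE 0.46) with overlap. Ndufaf1 and Ndufaf5 swung between under 1 CPM and over 10 CPM from library to library within both ages. The annotated span of Ndufaf2 overlaps that of Smim15 on the opposite strand, which had 25790 counts against its 8496, and an effect on its counts was not tested.

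Complex II, succinate dehydrogenase, links the chain to the citric acid cycle and has 4 subunits, all nuclear. Its summed level was 730.3, 619 and 765 CPM in the 18-month libraries, against 637, 552 and 832 CPM in the 2-month libraries, with overlap and a log2 ratio of means of 0.07, and its TPM sum was 378, 532 and 537 TPM in the 18-month libraries, against 276, 253 and 358 TPM in the 2-month libraries, higher in every 18-month library (log2 ratio 0.71). The length that the tables assign to Sdha, on which its TPM rest, differed between libraries: its effective length was 638, 506 and 174 bases in the 18-month libraries, against 1034, 925 and 1046 bases in the 2-month libraries. Sdha, the flavoprotein that oxidizes succinate, was at 148, 143 and 80.9 CPM in the 18-month libraries, against 92.0, 51.3 and 77.9 CPM in the 2-month libraries (log2 fold change 0.75, SE 0.44, adjusted p = 0.936), and is named after its values were seen. Its first 2 values at 18 months lay above the 2-month range and the third lay within it. Sdhb, the iron-sulfur subunit, was at 359, 225 and 361 CPM in the 18-month libraries, against 327, 296 and 436 CPM in the 2-month libraries (log2 fold change -0.16, SE 0.33, adjusted p = 0.993). Sdhd, a membrane anchor, was at 148, 186 and 239 CPM in the 18-month libraries, against 142, 162 and 266 CPM in the 2-month libraries (log2 fold change 0.01, SE 0.38, adjusted p = 0.999). Sdhc, the other anchor, had a log2 fold change of 0.39 (SE 0.47).

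Complex III had 9 nuclear members tested, 3 above 0 and 6 below (median log2 fold change -0.24, and -0.07 with 5 below 0 without the second 18-month library). Uqcr10 was at 369, 236 and 409.7 CPM in the 18-month libraries, against 513, 645 and 548 CPM in the 2-month libraries (log2 fold change -0.75, SE 0.31, adjusted p = 0.845, unadjusted p = 0.0396). Uqcr11 was at 448, 217 and 460.4 CPM in the 18-month libraries, against 625, 517 and 599 CPM in the 2-month libraries (log2 fold change -0.63, SE 0.35, adjusted p = 0.930). Both are small membrane subunits, and every 18-month library was lower than every 2-month library. Uqcrb and Uqcrh, the most abundant members of the complex, had log2 fold changes of -0.37 (SE 0.34) and -0.43 (SE 0.43) and overlapped. Cyc1, cytochrome c1, hands electrons to cytochrome c. It lies at chr15:76343523-76346260 (mm10) and had 131, 2537 and 949 counts in the 18-month libraries, against 50, 27 and 30 counts in the 2-month libraries, or 4.55, 65.7 and 33.5 CPM in the 18-month libraries, against 1.60, 1.00 and 1.07 CPM in the 2-month libraries (log2 fold change 4.81, SE 1.32, adjusted p = 0.619, unadjusted p = 0.00484). Every 18-month library was higher than every 2-month library, and the highest and lowest 18-month libraries were further apart than the lowest of them was from the 2-month libraries. DESeq2 gave an adjusted p of 0.00117 for it, and the other alternatives gave 0.197 to 0.952. Uqcrc1, a core subunit, was at 31.3, 135 and 60.2 CPM in the 18-month libraries, against 17.6, 40.8 and 28.4 CPM in the 2-month libraries (log2 fold change 1.38, SE 0.67, adjusted p = 0.902), the second 18-month library again being the highest. Both genes are named after their values were seen. Per length, Cyc1 averaged 15.4 TPM over the 6 libraries, beside a median of 908 TPM for the nuclear members of the complex and 1375 TPM for Uqcrb, although the enzyme holds these proteins in equal number. That mean covers 1.96, 65.8 and 23.3 TPM in the 18-month libraries, against 0.495, 0.324 and 0.335 TPM in the 2-month libraries. The effective length of Cyc1 differed too, at 953, 644 and 604 bases in the 18-month libraries, against 1248, 1264 and 1299 bases in the 2-month libraries. Cycs, cytochrome c itself, was at 256, 122 and 151 CPM in the 18-month libraries, against 216, 152 and 221 CPM in the 2-month libraries (log2 fold change -0.16, SE 0.39, adjusted p = 0.997).

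Complex IV, cytochrome c oxidase, had 16 of 19 nuclear members tested, 14 below 0 and 2 above (median log2 fold change -0.46, and -0.21 with 10 below 0 without the second 18-month library). Its summed level was 9768, 4599.5 and 8702 CPM in the 18-month libraries, against 9810.2, 10536 and 11969.9 CPM in the 2-month libraries, lower in every 18-month library (log2 ratio of means -0.49, and -0.22 without the second one). Ndufa4, long listed under complex I and now placed in complex IV, was the most abundant member, at 1291, 524 and 1217 CPM in the 18-month libraries, against 1409, 1699 and 1709.8 CPM in the 2-month libraries (log2 fold change -0.67, SE 0.37, adjusted p = 0.929). Cox4i1, the subunit through which ATP is known to slow the enzyme, was at 1257, 579 and 1464 CPM in the 18-month libraries, against 1422, 1148 and 1646 CPM in the 2-month libraries (log2 fold change -0.35, SE 0.37, adjusted p = 0.993). Ndufa4 did not overlap between the ages and Cox4i1 did. Cox6c was at 973, 410.2 and 791 CPM in the 18-month libraries, against 1002, 1360.1 and 1514 CPM in the 2-month libraries (log2 fold change -0.83, SE 0.37, adjusted p = 0.865, unadjusted p = 0.0472). Cox7a2 was at 889, 379.8 and 630.3 CPM in the 18-month libraries, against 914, 1137 and 1182 CPM in the 2-month libraries (log2 fold change -0.77, SE 0.35, adjusted p = 0.888). For both, the first 18-month library was just below the lowest 2-month library and the second lay far below. Cox6a1 differed least between the group means among the members of this complex with a mean above 500 CPM, at 642, 504 and 590.3 CPM in the 18-month libraries, against 563, 575 and 577 CPM in the 2-month libraries (log2 fold change 0.02, SE 0.27, adjusted p = 0.997).

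Complex V, the ATP synthase, had 16 nuclear members tested, 6 above 0 and 10 below (median log2 fold change -0.10). The median was 0.04 without the second 18-month library, with 8 of 16 below 0, and 0.04 with an offset that levels gene length, with 5 below 0. The subunits of the catalytic head and its stalk, Atp5a1 (alpha), Atp5b (beta), Atp5c1 (gamma) and Atp5d (delta), had log2 fold changes of 0.40 (SE 0.42), 0.30 (SE 0.40), 0.44 (SE 0.39) and 0.42 (SE 0.56), with overlap between the ages in all 4. Atp5e (epsilon), also in the stalk, was at 549, 230.4 and 393 CPM in the 18-month libraries, against 680.3, 829 and 614 CPM in the 2-month libraries (log2 fold change -0.86, SE 0.36, adjusted p = 0.848, unadjusted p = 0.0402). Atp5l, subunit g of the membrane part, was at 562, 273 and 566 CPM in the 18-month libraries, against 625, 585 and 817 CPM in the 2-month libraries (log2 fold change -0.53, SE 0.35, adjusted p = 0.972). These 2 were lower in every 18-month library. Atp5j and Atp5j2, the most abundant members, had log2 fold changes of -0.45 (SE 0.37) and -0.74 (SE 0.37). A second identifier annotated as Atp5o had 0 counts in every library, while Atp5o (OSCP) itself had a log2 fold change of -0.04 (SE 0.35).

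**Figure D3:**
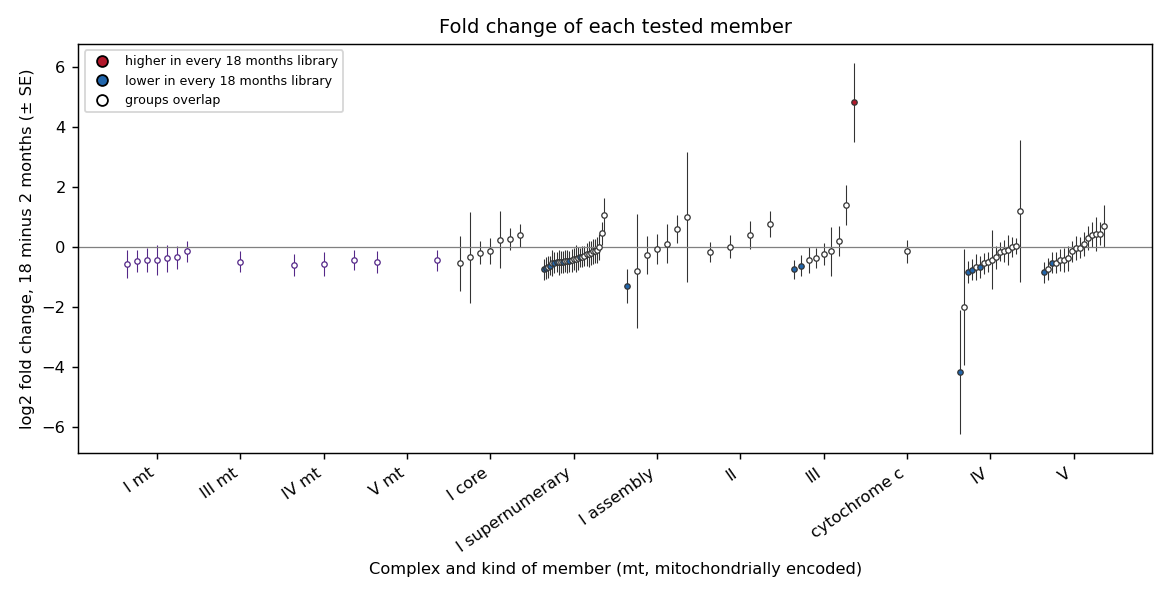
Log2 fold change (18 minus 2 months) of each tested member with its SE, by complex and kind of member (filled blue, lower in every 18-month library; filled red, higher in every 18-month library; open, overlapping). Most members of the supernumerary group of complex I and of complex IV lie below 0, complex II lies around 0, and Cyc1 is the only red point.

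Several complex IV and V subunits exist as isoforms that are typical of other tissues, and the shares of each set in TPM showed which were used. Cox4i1 made up 100% of its set in every library, and Cox4i2, the lung and hypoxia isoform, had 0 counts, which allows up to 0.112 CPM at 3 counts of the library with the smallest scaled total. Cox6a1 made up at least 96.5%, Cox6b1 at least 98.9% and Cox7b at least 99.7% of their sets. Cox8c was also at 0, and Cox7b2 had counts in the third 18-month library only, with 227. Ndufa4l2, known as a hypoxia-induced relative of Ndufa4, had 13 counts in 1 of the 2-month libraries and 0 elsewhere. In the Cox4i, Cox6a, Cox6b, Cox7b and Ndufa4 sets the ubiquitous form made up nearly the whole at both ages.

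Cox7a1, Cox6a2 and Cox8b are the heart and skeletal muscle isoforms. Cox7a1, at chr7:30184144-30186078 (mm10), had 0, 1 and 146 counts in the 18-month libraries, against 853, 656 and 1183 counts in the 2-month libraries (log2 fold change -4.18, SE 2.06, adjusted p = 0.910). The ages did not overlap, the first 18-month library was at 0, and across the alternatives the adjusted p was 0.172 to 0.933. As a share of its set it was 0, 0.0118 and 1.30% in the 18-month libraries, against 4.81, 3.68 and 5.89% in the 2-month libraries, beside Cox7a2 at 96.5, 94.5 and 89.0% in the 18-month libraries, against 89.4, 93.7 and 90.7% in the 2-month libraries. Cox7a2l, also in this set, was at 98.8, 69.8 and 219.9 CPM in the 18-month libraries, against 186, 97.4 and 137 CPM in the 2-month libraries (log2 fold change -0.11, SE 0.49, adjusted p = 0.997). Cox8b was at 9.66, 0.700 and 32.4 CPM in the 18-month libraries, against 18.2, 0 and 153 CPM in the 2-month libraries (log2 fold change -2.004, SE 1.93, adjusted p = 0.993), and reached 38.2% of its set in the third 2-month library alone. Cox6a2 was at 30.9, 12.5 and 0 CPM in the 18-month libraries, against 3.68, 0 and 15.3 CPM in the 2-month libraries and at 0 in 1 library of each age. Cox8a, the common form, was at 787, 436 and 737 CPM in the 18-month libraries, against 809, 715 and 683 CPM in the 2-month libraries (log2 fold change -0.17, SE 0.31, adjusted p = 0.993).

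The c-ring of the ATP synthase is encoded by 3 genes whose mature proteins are identical. Atp5g3 was the main source by TPM, with 65.8, 52.3 and 49.0% in the 18-month libraries, against 70.6, 62.8 and 65.0% in the 2-month libraries. Atp5g1 gave 30.3, 42.3 and 46.6% in the 18-month libraries, against 26.5, 35.4 and 32.9% in the 2-month libraries, and Atp5g2 gave 3.96, 5.36 and 4.39% in the 18-month libraries, against 2.88, 1.79 and 2.14% in the 2-month libraries. The share of Atp5g2 did not overlap between the ages, and those of Atp5g1 and Atp5g3 did. In CPM, Atp5g3 was at 534, 241 and 507 CPM in the 18-month libraries, against 638, 532 and 677 CPM in the 2-month libraries (log2 fold change -0.53, SE 0.35, adjusted p = 0.973), and Atp5g2 was at 34.05, 26.2 and 48.0 CPM in the 18-month libraries, against 27.2, 16.1 and 23.7 CPM in the 2-month libraries (log2 fold change 0.69, SE 0.72, adjusted p = 0.993), so neither difference in level passed the test. Atp5g1 had a log2 fold change of 0.09 (SE 0.40).

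The count of members that did not overlap was set against the same count over all genes. Of the 103 tested members, 17 were lower and 1 (Cyc1) was higher in every 18-month library, beside 7.19% lower and 7.54% higher of all tested genes. Among the 87 members with a mean of at least 50 CPM, 15 were lower, all of them nuclear, and 0 were higher, beside 8.45% lower and 11.2% higher of the 2189 tested genes at that level. The 15 were Ndufa2, Ndufa6, Ndufa13, Ndufb2, Ndufb3, Ndufc2, Ndufs5, Ndufv3, Uqcr10, Uqcr11, Cox6c, Cox7a2, Ndufa4, Atp5e and Atp5l, or 20.3% of the 74 nuclear members at that level. All were measured in the same 6 libraries, and the second 18-month library was the lowest for 57 of the 74. The 15 are therefore not 15 separate observations. Members below 1000 bases made up 14 of the 15, out of 71, where 12.8% of all genes of that length and level were lower and 6.38% higher. Leaving out a library can keep or raise such a count but cannot lower it, so an unchanged count is no check of it. Without the second 18-month library, 15 members were lower and 7 higher, beside 10.2% lower and 17.3% higher. Without the first 18-month library 37 were lower, beside 18.7%, and without the first 2-month library 25 were lower, beside 13.5%.

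The second 18-month library stood apart in short messages, and most nuclear members are short. It stood apart in cell type markers too, with the lowest CAM sum (7699.7 CPM) and the highest microglia sum (17022 CPM) of the 6 libraries, and the part of this in the members' values was not tested. It was the lowest of the 6 libraries for 57 of 74 nuclear members (77.0%) and for 9 of the 13 mitochondrially encoded ones, against 35.6% of the 2189 genes at that level. The median length of the nuclear members was 585 bases, against 1200 bases for all of these genes, as the mean of the tables' lengths over the libraries. For genes of up to 500 bases, its median log2 deviation from the mean of the 6 libraries was -1.04 over 24 nuclear members and -0.93 over all 160 genes. From 500 to 750 bases the values were -0.91 (30 members) and -0.66 (363 genes). From 750 to 1000 bases they were -0.40 (9 members) and -0.35 (356 genes), and from 1000 to 1500 bases -0.07 (9 members) and 0.05 (465 genes). In this library short genes were low as a class, members or not, and the part of this in the members' lower values was not tested beyond the values given without this library and with levelled length. The median deviations of the other 5 libraries lay between 0.04 and 0.40 for the shortest members. Over all genes these libraries shifted with length too, though less far. From genes of up to 500 bases to those of 1500 to 2000 bases, medians went from 0.37 to -0.19 in the second 2-month library. They went from 0.30 to -0.13 in the third 2-month library and from -0.0024 to 0.33 in the third 18-month library. The first libraries moved from 0.18 to 0.085 (18 months) and from 0.16 to -0.084 (2 months). By the longest coding transcript in GENCODE M21 instead, the second 18-month library deviated by -0.97 over 42 members of up to 1000 bases. Over 32 longer ones it deviated by -0.54, beside -0.76 and -0.05 over all genes. With an offset that levels length within each library, the median log2 fold change of the nuclear members was -0.10, with 53 of 90 below 0, and that of the mitochondrially encoded members -0.45, with 10 of 13 below 0.

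**Figure D4:**
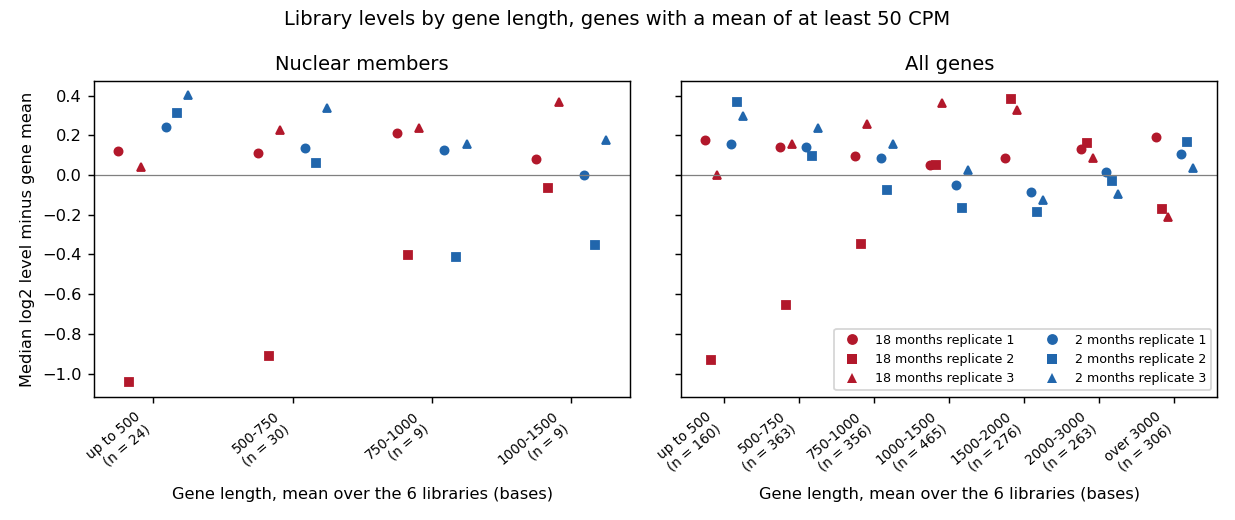
Median log2 level relative to the mean of the 6 libraries, by gene length, for nuclear members (left) and all genes (right) with a mean of at least 50 CPM (red, 18 months; blue, 2 months; the marker shape gives the replicate; length classes with under 8 genes are not drawn). The second 18-month library (red square) lies lowest for the shortest genes in both panels and among the other libraries from 1000 to 1500 bases. Over all genes it is the highest from 1500 to 2000 bases (0.38) and from 2000 to 3000 bases (0.16), and lies at -0.17 above 3000 bases.

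The spread within the ages was unequal. The median coefficient of variation of the nuclear members with a mean of at least 50 CPM was 38.8% between the 18-month libraries and 18.6% between the 2-month libraries, where all 2189 genes had 38.2% and 28.6%. For the mitochondrially encoded members it was 44.7% and 26.5%. The nuclear members were thus about as variable as other genes at 18 months and less so at 2 months. The second 18-month library was the lowest of the 6 for 57 of these 74 nuclear members. Its part in the 18-month spread was not tested.

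Promoters are shown for 4 nuclear members because NRF1 and the ETS factor GABP are known regulators of many of these genes. Sdha has 3 NRF1 matches, Atp5h has both motifs, and Atp5e and Uqcr11 are lower in every 18-month library. The letters searched, on both strands, were GCGCA, any base and GCGC for NRF1, CCGGAAG for GABP and AAGATGG for YY1, of which the last 2 can share the letters AAG. The windows ran from 250 bases before to 50 after the gene start in RefSeq (GRCm38.p6), and the 250 bases before the start are printed with matches in capitals, read 5′ to 3′ along each gene. All 4 genes are on the minus strand, at chr13:74350241-74350490 (Sdha), chr11:115419920-115420169 (Atp5h), chr2:174464102-174464351 (Atp5e) and chr10:80406822-80407071 (Uqcr11).
Sdha: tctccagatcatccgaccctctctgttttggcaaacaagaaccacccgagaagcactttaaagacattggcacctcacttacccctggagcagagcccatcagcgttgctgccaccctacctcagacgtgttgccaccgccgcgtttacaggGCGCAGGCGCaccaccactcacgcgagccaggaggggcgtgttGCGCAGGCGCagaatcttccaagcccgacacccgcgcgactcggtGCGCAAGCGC
Atp5h: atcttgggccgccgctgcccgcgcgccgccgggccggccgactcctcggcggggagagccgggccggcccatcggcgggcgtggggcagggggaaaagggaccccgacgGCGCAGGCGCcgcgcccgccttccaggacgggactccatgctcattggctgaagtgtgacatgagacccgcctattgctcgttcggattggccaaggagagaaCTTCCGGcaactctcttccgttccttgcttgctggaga
Atp5e: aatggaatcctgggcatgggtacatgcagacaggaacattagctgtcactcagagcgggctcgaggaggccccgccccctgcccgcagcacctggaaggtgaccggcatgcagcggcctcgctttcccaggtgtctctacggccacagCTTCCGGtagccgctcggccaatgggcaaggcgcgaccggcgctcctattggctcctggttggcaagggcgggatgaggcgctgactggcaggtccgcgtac
Uqcr11: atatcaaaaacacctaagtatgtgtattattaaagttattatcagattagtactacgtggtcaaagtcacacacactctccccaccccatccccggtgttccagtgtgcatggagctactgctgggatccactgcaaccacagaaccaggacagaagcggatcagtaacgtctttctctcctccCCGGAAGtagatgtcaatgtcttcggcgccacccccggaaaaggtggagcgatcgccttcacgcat
By symbol, 75 of the 96 nuclear members matched a window. The NRF1 letters were in 19 of them (25.3%), against 5.19% of 27025 genes, the GABP letters in 18 (24.0%), against 9.93%, and the YY1 letters in 11 (14.7%), against 7.28%. At least 1 of the 3 was in 41. Of the members with a mean of at least 50 CPM that were lower in every 18-month library, 13 matched a window. Among these 13, 2 had the NRF1 letters, 3 the GABP letters and 0 the YY1 letters. A match says only that the letters are there.

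Other mitochondrial gene lists set the scale, and 0 of their genes were called in either direction. Of 35 assembly factors outside the rule, 32 were tested, 14 above 0 and 18 below (median log2 fold change -0.28, -0.05 without the second 18-month library and -0.07 with the length offset). Their summed level was 2234, 1349 and 2420.1 CPM in the 18-month libraries, against 2641, 2726 and 2902 CPM in the 2-month libraries, lower in every 18-month library. Among them were Cox17, a copper chaperone of complex IV (log2 fold change -0.45, SE 0.37), and Cox16 (-0.68, SE 0.36). Of the 78 proteins of the mitochondrial ribosome, which translates the 13 mitochondrial messages, 36 were above 0 and 42 below (median -0.05, and 0.01 without the second 18-month library). The most abundant were Mrps33, at 559, 218 and 568 CPM in the 18-month libraries, against 624, 939.7 and 836 CPM in the 2-month libraries (log2 fold change -0.83, SE 0.40, adjusted p = 0.892), and Mrps21 (log2 fold change -0.51, SE 0.38). Of 22 genes for expression and upkeep of the mitochondrial genome, 19 were tested, 10 above 0 and 9 below (median 0.61, and 0.05 without the second 18-month library). Of the 19, 2 had a mean of at least 50 CPM, so the median rests mostly on genes at low levels. The summed level of this list overlapped between the ages, with a log2 ratio of means of -0.29, opposite in sign to the median. Slirp, which stabilizes mitochondrial messages, was at 334, 159 and 339 CPM in the 18-month libraries, against 372, 431 and 382 CPM in the 2-month libraries (log2 fold change -0.51, SE 0.36, adjusted p = 0.974), lower in every 18-month library. Ssbp1, the single-strand binding protein of mitochondrial DNA, was at 191, 83.8 and 220.0 CPM in the 18-month libraries, against 213, 219 and 254 CPM in the 2-month libraries (log2 fold change -0.47, SE 0.40, adjusted p = 0.993).

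The 17 genes of the citric acid cycle and pyruvate dehydrogenase had 16 log2 fold changes above 0 and 1 below, with a median of 0.99, and 0.57 without the second 18-month library. Their summed level was 731, 1169 and 975 CPM in the 18-month libraries, against 583, 380.2 and 519.8 CPM in the 2-month libraries, higher in every 18-month library. The most abundant was Idh3g, a subunit of isocitrate dehydrogenase, at 267, 173 and 189 CPM in the 18-month libraries, against 86.7, 94.8 and 137 CPM in the 2-month libraries (log2 fold change 0.98, SE 0.37, adjusted p = 0.780). Mdh2, malate dehydrogenase, was at 78.1, 158 and 122 CPM in the 18-month libraries, against 70.0, 0.893 and 53.3 CPM in the 2-month libraries (log2 fold change 1.53, SE 1.05, adjusted p = 0.974). Neither passed the test, and 1 of the 17 had an unadjusted p under 0.05. These genes are longer than the members: 1 of the 7 with a mean of at least 50 CPM was under 1000 bases, against 63 of 74 nuclear members. With the length offset, the median of the citric acid cycle genes was 0.89, with 1 of 17 below 0. Of 8 genes for exchange of nucleotides and phosphate across the mitochondrial membranes, 6 were above 0 and 2 below (median 0.43, and 0.15 with the length offset), with the carrier Slc25a5 at 541, 684 and 1156 CPM in the 18-month libraries, against 602, 431 and 756 CPM in the 2-month libraries (log2 fold change 0.41, SE 0.37, adjusted p = 0.993) and the channel Vdac2 at 189.7, 276 and 353 CPM in the 18-month libraries, against 214, 158 and 226 CPM in the 2-month libraries (log2 fold change 0.45, SE 0.35, adjusted p = 0.992). The difference between these lists and the members was not tested.

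**Figure D5:**
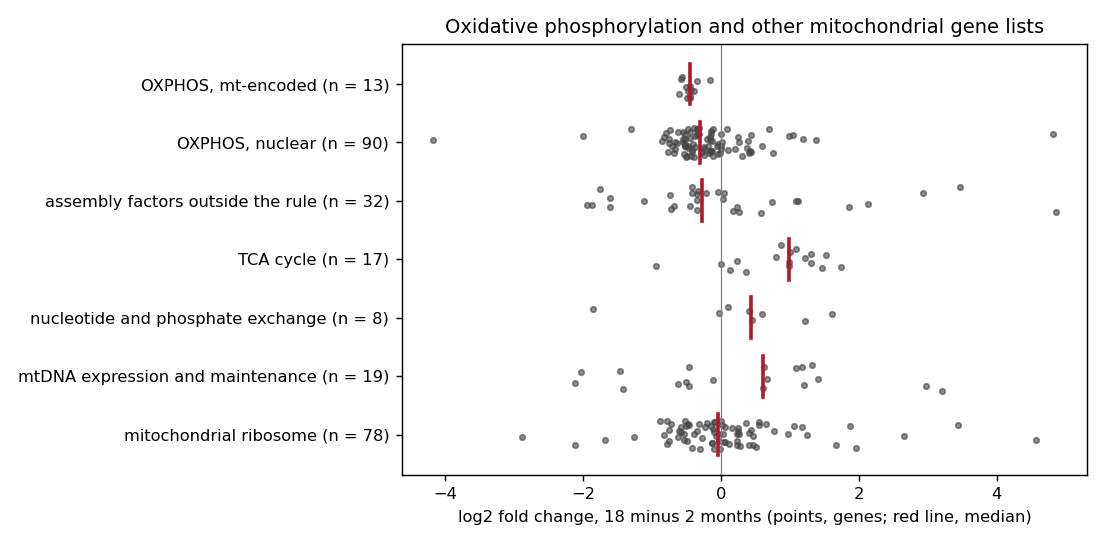
Log2 fold change (18 minus 2 months) of each tested gene of the oxidative phosphorylation members and of 5 other mitochondrial lists (points, genes; red line, median). The medians run from -0.45 for the mitochondrially encoded members and -0.30 for the nuclear members to 0.99 for the citric acid cycle genes, and the single genes of every nuclear list spread across 0.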

How the data were processed

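Per the labels' protocols, RNA of sorted cells was copied from about 500 pg with a SMARTer v4 low-input kit, amplified over 13 PCR cycles, made into Nextera XT libraries and sequenced as single reads; the kit does not mark strand. Per the submitters' processing notes, the build was mm10 and the tools were DRAGEN, bcl2fastq 2.20, fastp, Picard and FastQC. Which of them counted, and on which annotation, was not stated there. Each deposited table gives estimated counts, TPM, length and effective length for 35598 identifiers, of which 35513 matched GENCODE M21. The deposited TPM were used as they were. The authors' estimated counts, 90.22 to 92.93% of them whole, were rounded, which moved a library total by at most 8.85e-05%. A gene's deposited length differs between libraries, so its mean over the 6 was used.

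The main test was edgeR 4.0.16 (R 4.3.3): filterByExpr by age, TMM, robust quasi-likelihood F test without covariates, Benjamini-Hochberg over 10661 genes, adjusted p under 0.05. Fold changes are 18 minus 2 months, and SE is the fold change over the root of F. DESeq2 1.42.0, limma 3.58.1 (voom, and trend on log2(TPM + 1) above a mean of 1 TPM), no filter, 10 CPM in 3 libraries, other scalings, a replicate block and each library left out were alternatives. A mean of at least 50 CPM, an offset for gene length (lowess, span 0.3) and the counts without overlap per left-out library were chosen after seeing the data. The scripts were tested on simulated counts. Depth is the total of estimated counts per library, and limits for 0 counts use 3 counts and cover counting error only.

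The members and lists were chosen with earlier results of these data known. Named were all 13 mitochondrially encoded members, the 2 most abundant of each nuclear group and other list, abundant nuclear members without overlap, and the isoform sets; Cyc1, Ndufaf8, Uqcrc1, Sdha and Ndufa10, and others given only by a fold change, a range or an overlap, were named after their values were seen. Replicate numbers were not treated as pairs. The tables hold 1 processed pseudogene of the 9940 in M21, and 6 members have a pseudogene of the same name there, so reads of such copies may be counted with the members.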

Additional observations from a re-analysis of the deposited data

How the results depend on the processing

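The count of members called lower was 0 under every alternative, and that of members called higher was 0 except for 1, Cyc1, by DESeq2's Wald test (log2 fold change 4.78). Over all genes, DESeq2 called 113 higher and 41 lower, the fit without a filter 51 and 11, the fit restricted to a mean of 50 CPM or more 19 and 6, and limma-voom 0 and 0; the cause was not tested. With each library left out in turn, 0 to 2 genes were called higher and 0 to 1 lower. The median log2 fold change stayed below 0 under every alternative, with -0.48 to -0.06 for nuclear and -0.89 to -0.24 for mitochondrially encoded members over the left-out libraries. Without the second 18-month library, the nuclear median of -0.06 was not below that of all genes, -0.09. With any other library left out, the nuclear median was below that of all genes. Over the left-out libraries, the sums gave -0.54 to -0.14 (nuclear), -0.92 to -0.29 (mitochondrially encoded) and -0.35 to 0.11 (their ratio).

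Some uncalled members changed sign, not all of them near 0: log2 fold changes were -0.56 for mt-Nd4l, -0.45 for mt-Atp8, -0.44 for mt-Nd3, -0.45 for Atp5j, -2.004 for Cox8b and 1.19 for Cox6a2 in the test as reported, and the cause was not tested. The length offset gave 0.0086 for Atp5j, 0.11 for Cox8a, -0.20 for Sdhd, 0.12 for mt-Atp8, 0.066 for mt-Nd3 and 0.036 for mt-Nd4l. The log2(TPM + 1) scale gave 0.010 for Cox7a2l, 0.042 for Cox8a, 0.070 for Cycs, 0.26 for Ndufaf7, 0.11 for Ndufs8, 0.061 for Sdhb, 0.15 for mt-Nd5 and 0.0033 for mt-Nd6. Limma-voom gave -0.023 for Atp5g1, 0.29 for Cox8b and 0.015 for Ndufaf7, and DESeq2 and its size factors each gave -0.0028 for Sdhd. Over the left-out libraries the ranges were -0.37 to 0.33 for Atp5g1, -0.053 to 0.11 for Cox6a1, -0.019 to 2.97 for Cox6a2, -0.73 to 0.19 for Cox7a2l, -0.32 to 0.055 for Cox8a, -3.46 to 0.66 for Cox8b, -0.51 to 0.058 for Cycs, -0.36 to 0.18 for Ndufaf7, -0.45 to 0.037 for Ndufs8, -0.37 to 0.22 for Ndufv2, -0.27 to 0.033 for Sdhb, -0.18 to 0.33 for Sdhd and -0.53 to 0.034 for mt-Nd5.

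The replicate block called 1 gene higher and 0 lower, with 0 members, gave a median log2 fold change of -0.31 for nuclear and -0.53 for mitochondrially encoded members, and 0.012 for Ndufaf7. Same-numbered libraries of the 2 ages deviated with correlations of -0.0097, -0.0257 and 0.022, and not every library correlated best with its own number, so the block was not used for the main values, although both libraries of replicate 3 had a high choroid plexus epithelium sum.

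With 3 libraries per age and a wide spread at 18 months, SEs of the members' log2 fold changes had a median of 0.39. Depth limits only the members at or near 0, where 3 counts of a library are between 0.0777 and 0.112 CPM.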

Other observations

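The length that the tables assign to a gene, and with it its TPM, moved by more than 1.5-fold between libraries for 6 of the 74 nuclear members with a mean of at least 50 CPM (8.11%), for 0 of the 13 mitochondrially encoded members and for 511 of all 2189 genes at that level (23.3%). By median over the nuclear subunits, levels per length were lowest in complex II (90.5 TPM), followed by the core of complex I (137 TPM). Complex V (326 TPM) and the supernumerary subunits of complex I (387 TPM) came next, then complex IV (794 TPM) and complex III (908 TPM). The complex IV median covers all 19 genes, among them isoforms at or near 0, such as Cox4i2 (0 TPM) and Cox7b2 (2.05 TPM). Its place below complex III depends on counting these isoforms. The complex V median likewise counts an identifier at 0 TPM. Cox7b, at 4603 TPM, was the highest nuclear member by mean TPM, and its length in the tables averages 250 bases.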
